A study of Mus musculus with 10 samples.

Results

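Transcripts of 43 genes of fatty acid and cholesterol metabolism were compared between lung squamous cell carcinoma (SCC) and wild-type (WT) lung of the mouse. The genes were taken as a list, by symbol, from the 19096 genes to which the array's annotation pairs a probe, and each was represented by its probe with the highest mean over the 10 arrays. The list holds 13 genes of cholesterol synthesis, 4 regulators of the sterol regulatory element-binding proteins (SREBPs), 12 genes of fatty acid synthesis, 4 of lipid uptake and efflux, 6 of fatty acid oxidation and 4 of glycerolipid synthesis. The rule for the genes uses no measured value, although the list was drawn up with earlier results of these data known. None of the 43 was dim: each passed the scanner's test against background on 10 of 10 arrays, with 0 saturated spots.

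The SCC group comprised 5 whole lung tumours of CCSPiCreLkb1f/f mice, and the WT group 5 whole lungs of wild-type mice that the labels give as Lkb1f/f. Both groups therefore carried floxed Lkb1, were labelled as strain B6.129, were 13 months old and had no treatment. The iCre recombinase was driven by the promoter of CCSP, a secretory protein of the airway. Deletion of Lkb1 was thus directed to airway epithelium, and the other cells of a tumour would keep the floxed gene. The labels do not say whether a sample is 1 mouse or a pool, so the p-values measure the spread between these samples. Stk11, the current symbol of Lkb1, is paired with no probe, so its loss could not be checked here. RNA was hybridised to 1-colour Agilent whole mouse genome arrays, and levels are given as log2 intensity after quantile normalization. Levels of different probes cannot be set against each other.

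Cells make cholesterol from acetyl-CoA through mevalonate, farnesyl units, squalene and lanosterol, and nearly every enzyme of that route is under SREBP2. SREBPs are held in the endoplasmic reticulum by INSIG proteins when sterol is plentiful, and are escorted by SCAP to the Golgi for activation when it is scarce, while SREBP1 acts mainly on fatty acid synthesis. In the lung, alveolar type 2 cells make fatty acids for surfactant lipid, macrophages clear it, and capillary endothelium, fat and muscle take up circulating fatty acids. LKB1 is the kinase upstream of AMPK, which phosphorylates the acetyl-CoA carboxylases ACACA and ACACB.

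SCC replicate 2 stood apart from the other tumours. Its correlation with the WT arrays over all probes was 0.940 to 0.946, against 0.850 to 0.905 for the other SCC arrays. Squamous marker genes (Krt5, Krt14, Krt6a, Trp63 and others) averaged 9.51 on it, 12.85 to 13.21 on the other SCC arrays and 3.88 to 4.72 on the WT arrays, and all 7 rose in SCC. Of these, Krt6a, Dsg3 and Sprr1b were above background on 0 WT arrays and Ivl on 3. Krt6a, Dsg3, Sprr1b and Ivl entered the test only through the SCC group, so part of the WT average is background. SCC replicate 5 had 90.2% of probes above background, against 71.0 to 74.3% on the other arrays. Slide 1 held WT replicates 1 to 4. WT replicate 5 and SCC replicates 1 to 3 shared slide 2, and SCC replicates 4 and 5 shared slide 3, so that only slide 2 held both groups.

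Of the 43 genes, 19 were higher and 8 lower in SCC at a limma p-value below 0.05 after Benjamini-Hochberg adjustment over all 30374 probes tested. By the same measure 49.0% of all tested probes passed, 22.4% higher and 26.6% lower. With a difference of at least 2-fold as well, 7 of the genes were higher and 3 lower, against 9.92% and 13.0% of all probes. The groups did not overlap for 10 genes that were higher and 7 that were lower in SCC, against 16.3% and 21.0% of all probes (37.4% in either direction). The median difference was 0.41 on the log2 scale over the 43 genes and -0.09 over all tested probes. The median over all probes was 0.03 when arrays were scaled to their 75th percentile, a shift of 0.12. The roles differed in their counts. In cholesterol synthesis 12 of 13 genes were higher and none was lower, whereas in fatty acid synthesis 2 were higher and 5 lower of 12. Glycerolipid synthesis had 3 higher and none lower of 4, oxidation 1 higher and 1 lower of 6, uptake and efflux none higher and 1 lower of 4, and the SREBP regulators 1 higher and 1 lower of 4.

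**Figure D1:**
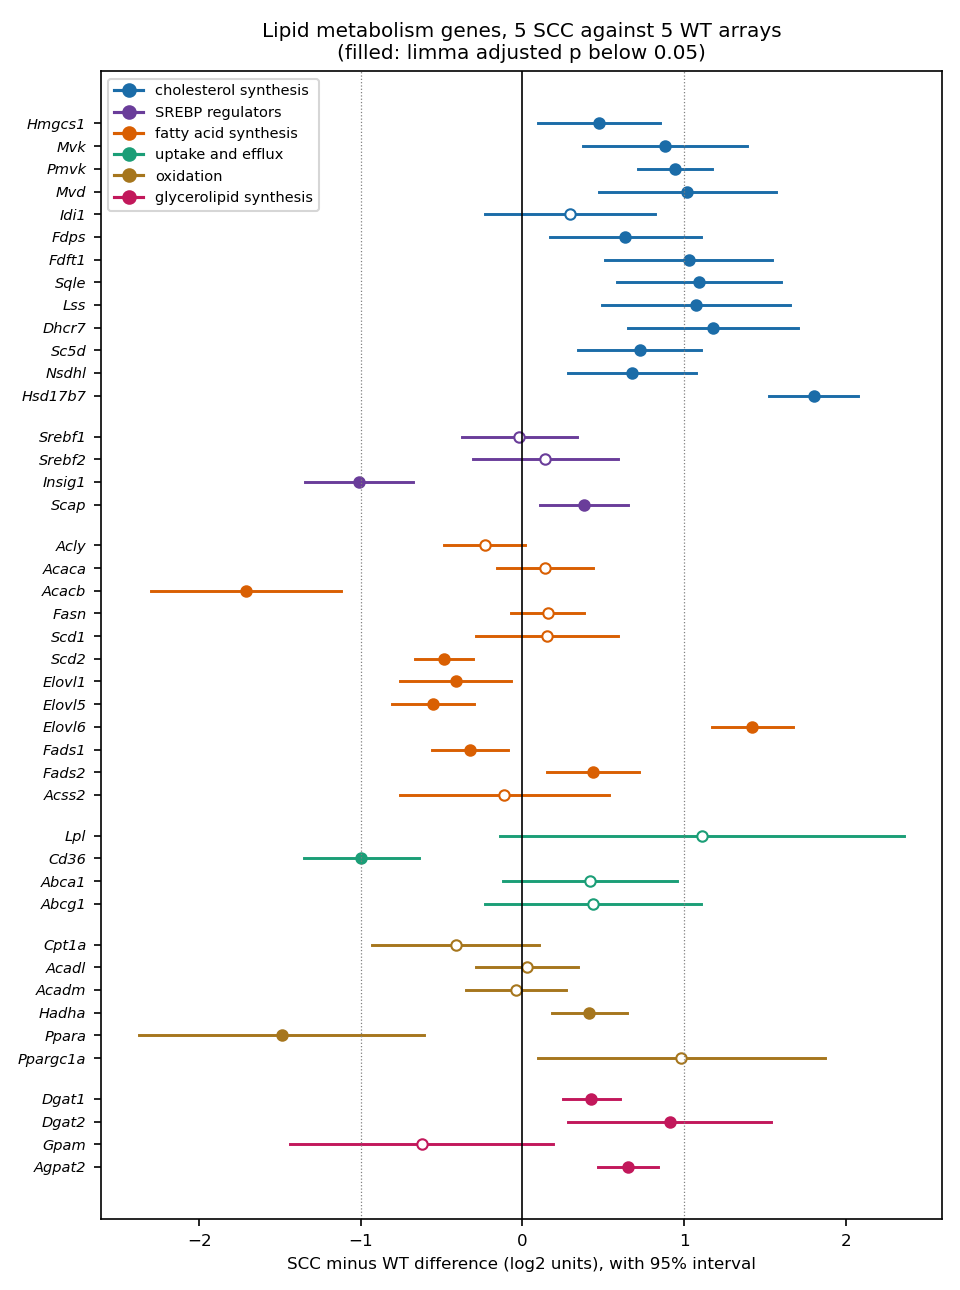
Difference between 5 SCC and 5 WT arrays for each of the 43 genes, grouped by role (log2 units; points are limma estimates, bars their 95% intervals, filled points pass the adjusted threshold, and dotted lines mark 2-fold). All 13 cholesterol synthesis genes lie right of 0, from 0.30 for Idi1 to 1.80 for Hsd17b7, while fatty acid synthesis runs from -1.71 for Acacb to 1.42 for Elovl6.

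Leaving out SCC replicate 2 raised the counts to 23 higher and 11 lower, while the number of all probes that passed rose from 14878 to 17865 of 30374. That array was singled out by its values in these data, so p-values of fits without it give no independent support. Leaving out SCC replicates 2 and 5 together gave 23 higher and 11 lower with 19731 of all probes passing. With slide as a fixed block, which compares only WT replicate 5 with SCC replicates 1 to 3 on slide 2, 5 of the genes were higher and none was lower, and 3814 of all probes passed. Those 5 genes were Pmvk, Hsd17b7, Elovl6 and Agpat2, which also passed without the block, and Scd1, which differed by 0.96 there (limma adjusted p = 0.025) and by 0.15 without the block (adjusted p = 0.533). WT replicate 5 was the lowest WT array for 26 of the 43 genes and for 10 of the 13 cholesterol synthesis genes, so a comparison that rests on it as the only control carries that position. Its spread is taken within all 3 slides, and WT replicate 5 is assumed to vary like the other arrays.

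The start regions of the cholesterol synthesis genes were examined for short motifs, since these genes moved together. Of the 43 genes, 33 have a start region in the RefSeq table (assembly GRCm38.p6), among them 10 of the 13 cholesterol synthesis genes. The 250 bases before the transcript start were searched on both strands for CCAAT, bound by NF-Y, for GGGCGG, a GC box bound by Sp1, for CACGTG, an E-box, and for TCACNCCAC, a core of the sterol regulatory element. Where a gene has several starts, a match at any of them counted, among the members as among all 27025 genes. These 4 regions are shown for the gene with the largest rise in the cholesterol group, for the one gene with a TCACNCCAC match, for a second early enzyme, and for the SREBP regulator that fell. They are printed on the strand of the gene. Capitals mark CCAAT, which reads ATTGG where it lies on the opposite strand, and the sterol element core, while E-box and GC box matches are left in lower case.
Hsd17b7, chr1:169969206-169969455, minus strand: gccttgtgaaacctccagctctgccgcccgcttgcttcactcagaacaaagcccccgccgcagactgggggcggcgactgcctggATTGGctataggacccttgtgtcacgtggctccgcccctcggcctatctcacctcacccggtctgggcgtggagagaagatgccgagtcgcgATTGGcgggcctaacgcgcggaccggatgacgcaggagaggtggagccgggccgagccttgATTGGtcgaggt
Hmgcs1, chr13:119690101-119690350, plus strand: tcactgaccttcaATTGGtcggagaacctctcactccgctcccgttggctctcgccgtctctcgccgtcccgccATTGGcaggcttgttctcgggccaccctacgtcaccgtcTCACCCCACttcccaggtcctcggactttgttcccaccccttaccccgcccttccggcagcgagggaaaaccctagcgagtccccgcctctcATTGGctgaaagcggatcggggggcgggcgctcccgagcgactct
Mvk, chr5:114444019-114444268, plus strand: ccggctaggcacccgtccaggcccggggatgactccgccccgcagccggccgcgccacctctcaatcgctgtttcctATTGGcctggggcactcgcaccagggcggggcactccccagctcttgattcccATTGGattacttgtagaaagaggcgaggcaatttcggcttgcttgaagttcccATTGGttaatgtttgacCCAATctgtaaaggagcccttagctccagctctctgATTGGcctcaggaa
Insig1, chr5:28071162-28071411, plus strand: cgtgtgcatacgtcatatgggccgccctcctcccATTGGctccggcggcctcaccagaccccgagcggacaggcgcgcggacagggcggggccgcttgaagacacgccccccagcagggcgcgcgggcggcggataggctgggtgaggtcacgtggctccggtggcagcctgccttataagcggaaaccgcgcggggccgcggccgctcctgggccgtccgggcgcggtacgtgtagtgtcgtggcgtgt

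CCAAT occurred before 10 of the 10 cholesterol synthesis genes with an entry (100%), against 37.5% of all genes. Dhcr7 and Pmvk have several starts, and not every one of them had a CCAAT match. Hsd17b7 has it 165, 73 and 12 bases before its start, and Hmgcs1 at 237, 176 and 45. A GC box occurred in 9 of the 10 (90%, against 35.4% of all genes) and the E-box in 3 (30%, against 6.86%). The TCACNCCAC match was found in 1 of the 10, Hmgcs1, where it starts 137 bases before the transcript start, and in 1.22% of all genes. Over all 33 members with an entry, CCAAT occurred in 63.6% and the GC box in 75.8%. CCAAT occurred in 5 of 9 fatty acid synthesis genes, 3 of 4 SREBP regulators and 1 of 6 oxidation genes, and the GC box in 4 of 9, 4 of 4 and 4 of 6. Insig1, whose transcript moved opposite to the enzymes, has CCAAT at 216 and the E-box at 101 bases before its start. These matches describe the letters of the windows and no binding was measured.

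Cholesterol synthesis was the role in which the genes moved together. The 13 differences were all positive with a median of 0.94, 12 passed the test and 6 of them reached 2-fold. The genes are described in the order of the pathway. HMGCS1 makes HMG-CoA from acetyl units. Hmgcs1 read 13.61, 13.65, 13.87, 13.69 and 13.52 on WT replicates 1 to 5 and 14.19, 13.69, 14.19, 14.68 and 13.98 on SCC replicates 1 to 5. The groups overlapped through SCC replicate 2, and the difference of 0.47 ± 0.17 (SE, adjusted p = 0.0399) passed in 3 of the 10 fits that each left out 1 array. Its other probe rose by 0.79 (adjusted p = 0.016).

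Mevalonate is phosphorylated by MVK and then by PMVK, and MVD turns the product into isopentenyl diphosphate. Mvk read 8.65, 8.66, 8.48, 8.74 and 8.30 in WT and 9.31, 8.63, 9.63, 9.83 and 9.86 in SCC. It rose by 0.88 ± 0.23 (adjusted p = 0.00966), with SCC replicate 2 inside the WT range. Its other probe differed by 0.40 and did not pass (adjusted p = 0.0783). Pmvk read 13.38, 13.74, 13.52, 13.60 and 13.45 in WT and 14.35, 14.48, 14.41, 14.69 and 14.48 in SCC. Every tumour, SCC replicate 2 included, lay above every WT lung, and the rise was 0.94 ± 0.10 (1.92-fold, adjusted p = 6.75e-05, exact permutation p = 0.00794, the smallest that 252 splits of the arrays can give). Mvd read 9.59, 9.82, 9.59, 9.87 and 9.29 in WT and 10.74, 9.72, 10.90, 11.07 and 10.83 in SCC, a rise of 1.02 ± 0.24 (adjusted p = 0.00679) in which SCC replicate 2 again lay among the WT values.

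IDI1 isomerises the 5-carbon unit, and FDPS joins such units into farnesyl diphosphate. Idi1 was the one gene of the group that did not pass. It read 13.29, 13.65, 13.47, 13.56 and 13.11 in WT and 13.80, 12.83, 13.92, 14.17 and 13.83 in SCC, and 4 tumours lay above all WT arrays while SCC replicate 2 lay below them. The difference was 0.30, with a 95% interval from -0.23 to 0.82 (adjusted p = 0.317), and without SCC replicate 2 it was 0.52 (limma adjusted p = 0.00865). Fdps was higher by 0.64 ± 0.21 (adjusted p = 0.0294), at 11.97 to 12.71 in WT and 12.39 to 13.41 in SCC, and passed in 5 of the 10 fits without 1 array.

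FDFT1, the squalene synthase, SQLE, the squalene epoxidase, and LSS, the lanosterol synthase, carry out the first steps that lead to sterols alone. Fdft1 read 10.51, 10.76, 10.59, 10.83 and 10.28 in WT and 11.48, 10.86, 11.82, 12.23 and 11.72 in SCC, without overlap. It rose by 1.03 ± 0.23 (adjusted p = 0.00478), though its other probe differed by 0.52 with an adjusted p of 0.186. Sqle read 11.97, 11.97, 11.89, 11.85 and 11.53 in WT and 12.90, 12.08, 13.33, 13.24 and 13.12 in SCC, also without overlap. The rise of Sqle was 1.09 ± 0.23 (adjusted p = 0.00313). Lss rose by 1.07 ± 0.26 (adjusted p = 0.00735) from 8.42 to 9.28 in WT to 9.19 to 10.46 in SCC, and its other probe by 1.26 (adjusted p = 0.00586).

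The later enzymes demethylate, reduce and desaturate the sterol ring. NSDHL and HSD17B7 act together in removing methyl groups, and SC5D and DHCR7 complete the last steps. Hsd17b7 had the largest rise of the 43 genes. It read 9.98, 10.42, 10.43, 10.02 and 10 in WT and 11.92, 11.97, 11.85, 12.12 and 12 in SCC. The 5 tumours lay close together and SCC replicate 2 was not set apart, and the rise was 1.80 ± 0.12 (3.48-fold, adjusted p = 6.38e-06). A second Hsd17b7 probe rose by 1.95 (adjusted p = 2.37e-05). Dhcr7 read 12.03, 12.15, 11.88, 12.04 and 11.93 in WT and 13.53, 12.23, 13.54, 13.21 and 13.42 in SCC, where 4 tumours stood more than 2-fold above the WT mean and SCC replicate 2 just above the WT range. Its rise was 1.18 ± 0.23 (adjusted p = 0.00251), and its other probe rose by 1.50. Sc5d (0.72 ± 0.17, adjusted p = 0.0062) and Nsdhl (0.68 ± 0.18, adjusted p = 0.0107) rose by less, and both other Nsdhl probes rose as well, by 0.70 and 0.69.

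**Figure D2:**
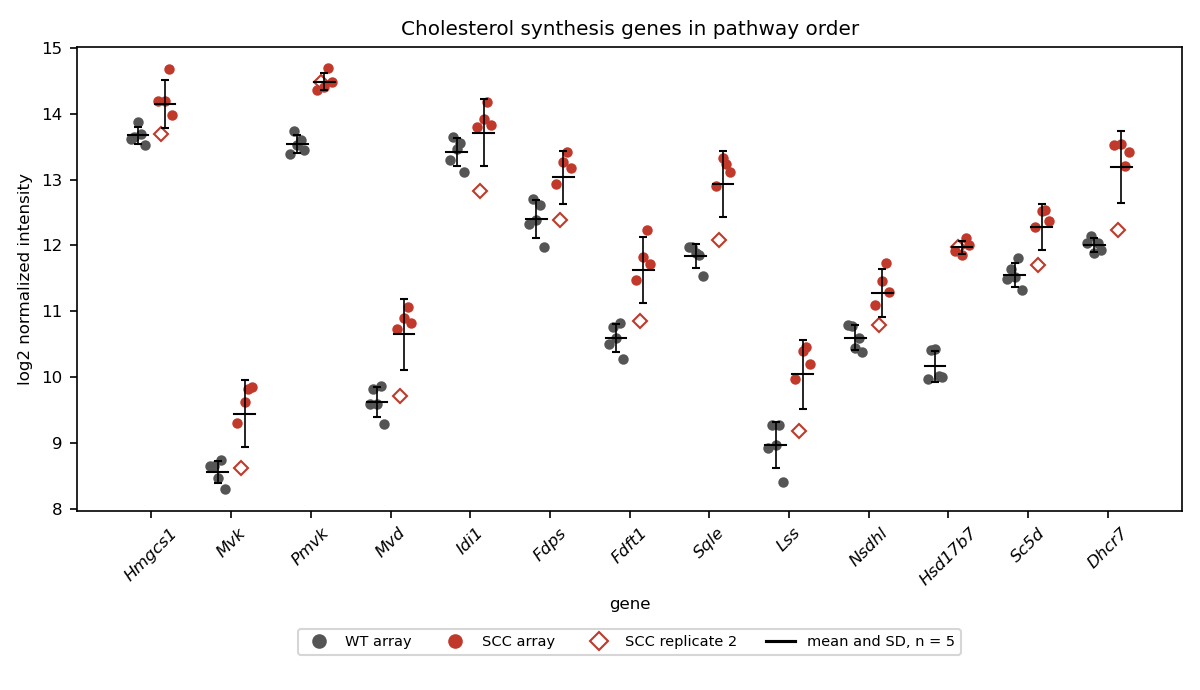
Log2 normalized intensity of the 13 cholesterol synthesis genes in pathway order on each of the 10 arrays, with group means and SD (n = 5); the open diamond is SCC replicate 2. The diamond lies within or next to the WT values for most genes, but with the other tumours for Pmvk and Hsd17b7. Levels of different genes come from different probes and are not comparable.

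SCC replicates 1, 3, 4 and 5 each exceeded the WT range for 13 of the 13 cholesterol synthesis genes. SCC replicate 2 exceeded it for 5, fell below it for 1 and lay within it for 7. The median distance from the WT mean was 0.19 on SCC replicate 2 and 0.81 to 1.20 on the other SCC arrays, and it was the lowest tumour for 11 of the 13 genes. SCC replicate 4 was the highest for 10. Without SCC replicate 2, all 13 genes passed, with a median of 1.09. Proliferation markers such as Mki67 and Top2a averaged 9.50 on SCC replicate 2, 10.79 to 11.26 on the other SCC arrays and 7.19 to 8.30 on the WT arrays, and all 6 rose in SCC, as did the 7 squamous markers given above. Their part in the cholesterol result was not tested. On slide 2 alone the 13 differences were again all positive, with a median of 0.96, against that 1 WT array. The differences of Pmvk (0.96) and Hsd17b7 (1.91) passed there and the other 11 did not. The other settings tried, scaling to the 75th percentile among them, also left all 13 positive.

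The rest of the sterol pathway behaved less uniformly. Of 16 further cholesterol genes, 2 were higher and 2 lower, with a median difference of 0.15, so the movement of the 13 enzymes did not extend over the whole route. The following genes of this paragraph were picked out after their values had been seen. Cyp51, the lanosterol demethylase, read 8.80, 9.17, 8.71, 9.16 and 8.43 in WT and 10.26, 9.30, 10.88, 10.76 and 10.38 in SCC, a rise of 1.46 (adjusted p = 0.00244) without overlap. Soat1, which esterifies cholesterol for storage, rose by 1.24 (adjusted p = 0.00885). Msmo1, the sterol methyl oxidase, differed by 0.48 with an interval from 0.05 to 0.91 and did not pass (adjusted p = 0.062). The 2 that fell were Stard4, a sterol carrier, by -0.30 and Nr1h3, the oxysterol receptor LXR alpha, by -0.53.

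Among the SREBP regulators, the transcripts of both SREBPs did not pass, while one of their partners rose and the other fell. Srebf2 ranged from 9.46 to 10.12 in WT and 9.40 to 10.40 in SCC, a difference of 0.14 with a 95% interval from -0.31 to 0.59 (adjusted p = 0.575). Srebf1 differed by -0.02 with an interval from -0.37 to 0.34 (adjusted p = 0.933), and its highest value of all arrays, 15.08, was on SCC replicate 2. SREBPs are activated by cleavage, which a transcript level does not measure. Scap read 14.29, 14.31, 14.20, 14.18 and 14.25 in WT and 14.76, 14.31, 14.88, 14.40 and 14.78 in SCC. The rise of 0.38 ± 0.12 (adjusted p = 0.0272) passed in 5 of the 10 fits without 1 array, and SCC replicate 2 met the top of the WT range.

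Insig1, itself a sterol-responsive gene whose product retains SCAP in the endoplasmic reticulum, read 8.95, 9.36, 9.36, 9.30 and 9.01 in WT and 7.97, 8.63, 8.01, 8.09 and 8.21 in SCC. All tumours lay below all WT lungs, and Insig1 fell by 1.01 ± 0.15 (2.02-fold, adjusted p = 0.000453, exact permutation p = 0.00794), in the direction opposite to the synthesis enzymes. Its other probe differed by -1.03 but did not pass (adjusted p = 0.105). On slide 2 alone Insig1 differed by -0.81 (adjusted p = 0.112).

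**Figure D3:**
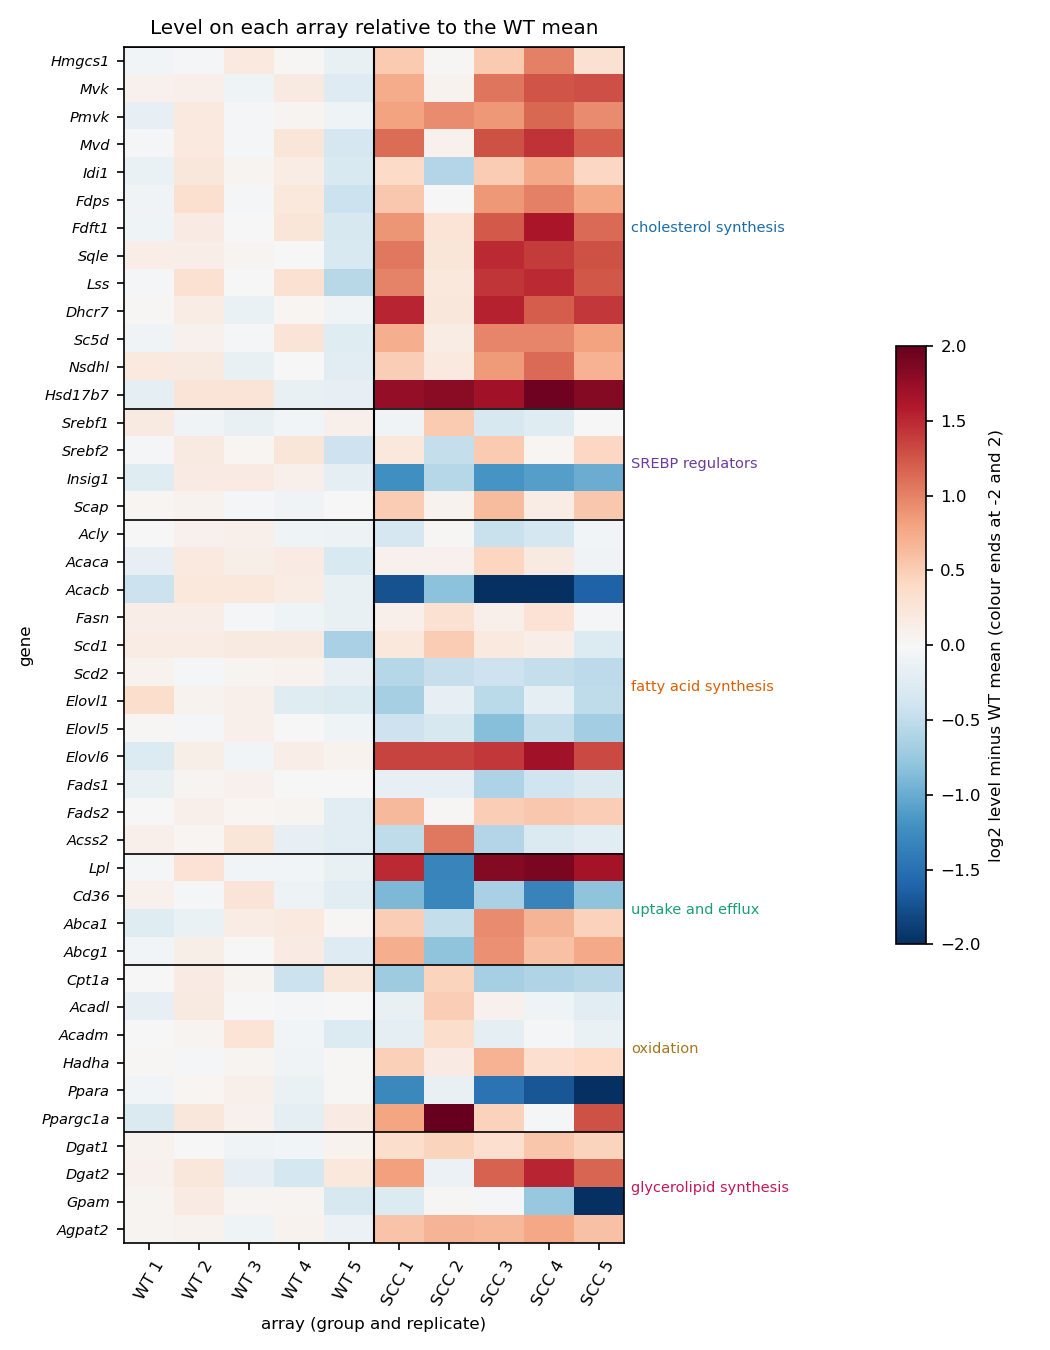
Level of each of the 43 genes on each array minus the mean of the 5 WT arrays (log2 units, colours end at -2 and 2), in groups by role. SCC replicate 2 is paler than the other tumours over most cholesterol synthesis genes and has the opposite colour for some genes, among them Idi1, Lpl, Abca1, Abcg1, Acss2 and Cpt1a.

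Fatty acid synthesis did not follow cholesterol synthesis. The 12 differences ran from -1.71 to 1.42 with a median of -0.17. The enzymes that build palmitate from citrate did not pass. Acly, which releases cytosolic acetyl-CoA, differed by -0.23 (adjusted p = 0.108) and Acaca, the cytosolic acetyl-CoA carboxylase, by 0.14 (adjusted p = 0.401). Fasn, the fatty acid synthase, read 16.83, 16.84, 16.68, 16.61 and 16.55 in WT and 16.80, 17.01, 16.80, 16.99 and 16.68 in SCC, a difference of 0.16 with a 95% interval from -0.07 to 0.38 (adjusted p = 0.228). The Fasn call depended on the probe and the scaling. A second Fasn probe rose by 0.88 (adjusted p = 3.8e-05), and the first gave 0.46 after 75th percentile scaling (adjusted p = 0.00414) and 0.23 after normexp background correction (adjusted p = 0.0436). One of the 3 further Acaca probes also passed, at 0.67 (adjusted p = 0.0427).

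Acacb, the carboxylase at the outer mitochondrial membrane whose malonyl-CoA restrains CPT1, had the largest fall of the 43 genes. It read 11.01, 11.65, 11.65, 11.59 and 11.28 in WT and 9.69, 10.61, 9.37, 9.14 and 9.82 in SCC. The groups did not overlap, SCC replicate 2 lay nearest to WT, and the fall was 1.71 ± 0.26 (3.27-fold, adjusted p = 0.000563). The second Acacb probe was above background on only 2 WT and 4 SCC arrays and entered the test through the SCC group alone. It did not pass (adjusted p = 0.114). It read 3.44 to 4.06 in WT, 7.54 on SCC replicate 5 and 4.21 to 4.84 on the other tumours. Its sign was thus opposite to that of the probe used. The other 25 further probes, of 26 for 22 of the genes, had the sign of the probe used. Acacb is expressed in fat and heart muscle. Adipocyte markers averaged 7.05 to 9.46 in WT and 6.09 to 6.95 in SCC (5 of 6 tested fell and Fabp4 rose), and cardiac markers such as Myh6 averaged 9.85 to 13.38 in WT and 7.95 to 9.75 in SCC (6 of 7 fell). Of these adipocyte markers, Adipoq and Retn were above background on 2 and 1 of the SCC arrays and entered the test only through the WT group. Lep, above background on 0 WT and 1 SCC arrays, was part of the averages but was not tested. The part of both lists in the Acacb difference was not tested. In whole tissue, fewer cells of a type and less RNA per cell cannot be told apart.

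Elongation and desaturation genes moved in both directions. ELOVL6 extends palmitate to stearate. Elovl6 read 9.74, 10.13, 9.96, 10.15 and 10.09 in WT and 11.36, 11.36, 11.43, 11.70 and 11.33 in SCC. SCC replicate 4 was the highest and the other 4 tumours, SCC replicate 2 included, lay between 11.33 and 11.43, and the rise was 1.42 ± 0.11 (2.68-fold, adjusted p = 1.39e-05); on slide 2 alone it was 1.29 (adjusted p = 0.0124). Elovl5, which extends polyunsaturated fatty acids, fell by 0.55 ± 0.11 (adjusted p = 0.00294) from 14.05 to 14.24 in WT to 13.29 to 13.82 in SCC. Elovl1, an elongase of very long saturated chains, fell by 0.41 ± 0.15 (adjusted p = 0.0469), a call kept in 4 of the 10 fits without 1 array and lost after 75th percentile scaling (-0.23, adjusted p = 0.155).

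The stearoyl-CoA desaturases introduce the double bond of oleate. Scd2 read 15.77, 15.66, 15.76, 15.78 and 15.55 in WT and 15.14, 15.25, 15.29, 15.23 and 15.18 in SCC. It fell by 0.49 ± 0.08 (adjusted p = 0.000867) without overlap, and differed by -0.31 after 75th percentile scaling (adjusted p = 0.0256). Scd1 read 15.70, 15.70, 15.73, 15.73 and 14.90 in WT and 15.76, 16.06, 15.75, 15.68 and 15.28 in SCC, a difference of 0.15 with an interval from -0.28 to 0.59. WT replicate 5 was far below the other WT lungs for Scd1, and without it the difference was -0.01. FADS1 and FADS2 desaturate polyunsaturated fatty acids, and their transcripts moved apart. Fads1 fell by 0.32 ± 0.10 (adjusted p = 0.0272, passing in 4 of the 10 fits without 1 array), while Fads2 rose by 0.44 ± 0.13 (adjusted p = 0.0175). Acss2, which makes acetyl-CoA from acetate, read 12.10 on SCC replicate 2 and 10.46 to 10.82 on the other tumours, against 10.82 to 11.28 in WT. Its difference was -0.11 with all arrays (adjusted p = 0.77) and -0.40 without SCC replicate 2 (adjusted p = 0.0208).

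Alveolar type 2 markers (surfactant proteins, Lamp3, Napsa and others) averaged 14.29 to 14.43 in WT and 13.53 to 14.11 in SCC, with the highest tumour value on SCC replicate 2, and 6 of 9 fell. Sftpc, the defining marker, read 18.45 to 18.80 on every array, at the top of the scale. The part of these cells in the falls of Scd2, Elovl5 and Fads1 was not tested. Of 11 further fatty acid synthesis genes tested, 5 were higher, Elovl4 among them, and 2 lower. Over all tested probes the shares were 22.4% higher and 26.6% lower. The genes besides Elovl4 are named here after their values were seen. Acsl3 (1.66), Me1 (1.63), Elovl7 (1.52) and Hsd17b12 (0.42) rose without overlap. The 2 lower genes were Mlxipl (-1.51) and Thrsp (-1.35). Elovl4, an elongase of very long chains, was above background on 2 of 5 WT and 4 of 5 SCC arrays. Elovl4 read 9.16, 1.96, 9.92, 9.94 and 9.24 in SCC, so that it was high in the 4 tumours other than SCC replicate 2. It entered the test only through the SCC group, and no size of its difference is given.

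In uptake and efflux, SCC replicate 2 lay below the WT range for 4 of the 4 genes. The other tumours lay above it for Lpl, Abca1 and Abcg1 and below it for Cd36. LPL, anchored on capillaries, frees fatty acids from lipoproteins and is also made by macrophages. Lpl read 13.74, 14.06, 13.72, 13.72 and 13.62 in WT and 15.26, 12.46, 15.61, 15.65 and 15.43 in SCC. The 4 other tumours were above all WT lungs and SCC replicate 2 below them, so the difference of 1.11 had a 95% interval from -0.14 to 2.36 and did not pass (adjusted p = 0.125). Without SCC replicate 2 it was 1.72 (adjusted p = 3.84e-06). Abca1 and Abcg1, which export cholesterol to apolipoprotein A1 and to HDL, had the same arrangement. Abcg1 read 13.93, 14.10, 13.99, 14.15 and 13.72 in WT and 14.70, 13.17, 14.89, 14.57 and 14.74 in SCC. Its difference was 0.44 (adjusted p = 0.25) with all arrays and 0.75 (adjusted p = 0.000353) without SCC replicate 2. For Abca1 the values were 0.42 (adjusted p = 0.174) and 0.64 (adjusted p = 0.00311).

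The average of the macrophage markers was also lower on SCC replicate 2 than on the other tumours. These markers averaged 13.36 to 13.82 in WT, 13.44 on SCC replicate 2 and 14.56 to 14.72 on the other SCC arrays, with 3 of 6 higher and 1 lower in SCC. Neutrophil markers averaged 9.57 to 10.63 in WT, 9.33 on SCC replicate 2 and 11.39 to 12.18 on the other SCC arrays, with 3 of 5 tested higher. The averages include Ngp, which was above background on 2 WT and 1 SCC arrays and was not tested. Ngp read 7.57 on SCC replicate 5, the array with the 12.18, and 2.76 to 4.07 on the other tumours. The part of macrophages and neutrophils in the values of Lpl, Abca1 and Abcg1 was not tested.

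CD36 takes up fatty acids and oxidised lipoprotein in endothelium, fat, muscle and macrophages. Cd36 read 15.02, 14.92, 15.20, 14.84 and 14.73 in WT and 14.05, 13.63, 14.30, 13.61 and 14.13 in SCC. It fell in all 5 tumours without overlap, by 1.00 ± 0.16 (adjusted p = 0.000713). Endothelial markers (Pecam1, Cdh5 and others) averaged 13.65 to 13.86 in WT and 11.18 to 12.37 in SCC, and all 6 fell, a part in the Cd36 result that was not tested. Of 15 further uptake, storage and glycerolipid genes, 5 were higher and 5 lower, and 3 of these differed by at least 4-fold. Fabp3, the fatty acid-binding protein of heart and muscle, read 11.70, 13.77, 12.76, 12.32 and 12.34 in WT and 9.05, 9.76, 8.99, 9.36 and 8.97 in SCC, and fell by 3.35 (adjusted p = 5.49e-05). The cardiac markers given above fell as well, and their part in the Fabp3 result was not tested. Gpihbp1, which anchors LPL to capillary endothelium and is one of the 6 endothelial markers, fell by 2.08 (adjusted p = 2.37e-05). Plin1, the lipid droplet coat of adipocytes and one of the adipocyte markers, also fell by 2.08 (adjusted p = 0.00626).

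**Figure D4:**
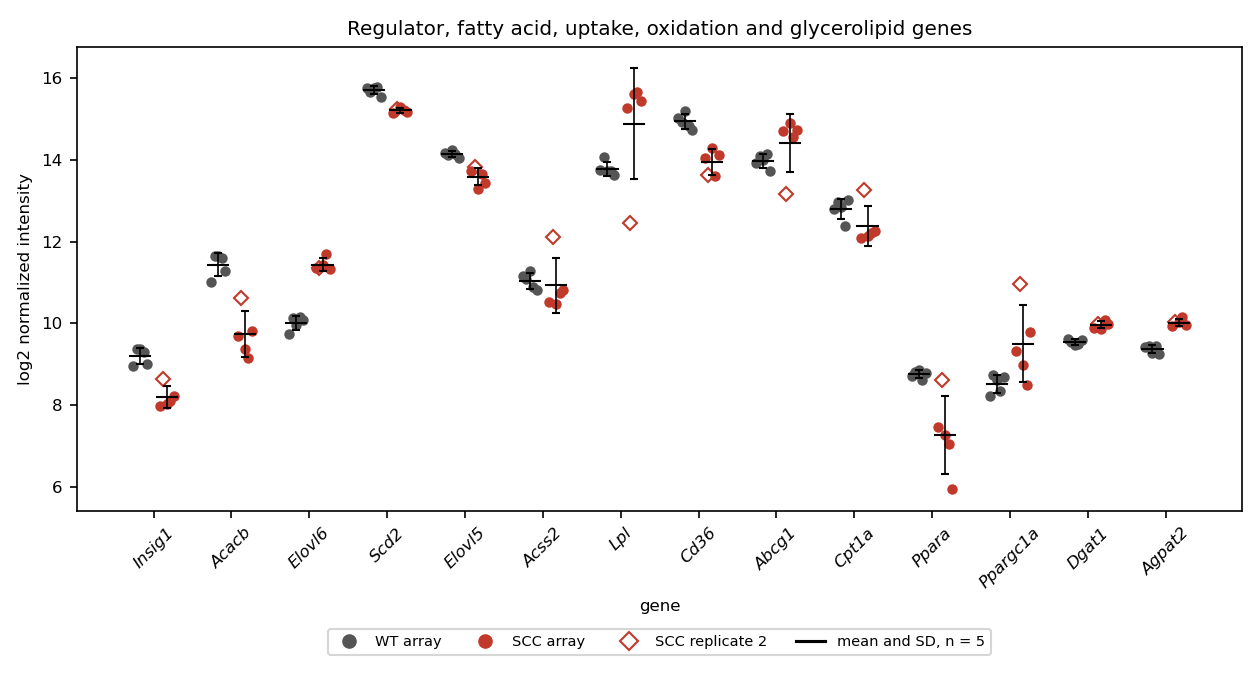
Log2 normalized intensity of 14 genes of the other roles on each array, with group means and SD (n = 5); the open diamond is SCC replicate 2. The diamond lies on the other side of the WT values from the 4 other tumours for Lpl, Abcg1 and Cpt1a. For Acss2 it lies above the WT values, and the 4 other tumours lie below or level with the lowest WT value. It lies with the other tumours for Elovl6, Scd2, Dgat1 and Agpat2. Levels of different genes are not comparable.

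Fatty acid oxidation showed few differences in its enzymes. CPT1A admits fatty acids to mitochondria, and ACADL, ACADM and HADHA work in the cycle that shortens them. Acadl differed by 0.03 with an interval from -0.29 to 0.34 and Acadm by -0.04 with an interval from -0.35 to 0.27. Hadha read 9.68, 9.64, 9.72, 9.59 and 9.68 in WT and 10.13, 9.83, 10.35, 9.99 and 10.06 in SCC, and rose by 0.41 ± 0.10 (adjusted p = 0.00877) without overlap. Cpt1a read 12.79, 12.96, 12.85, 12.37 and 13.02 in WT and 12.09, 13.25, 12.13, 12.20 and 12.25 in SCC. The 4 tumours other than SCC replicate 2 lay below all WT lungs and SCC replicate 2 above them. The difference was -0.41 with all arrays (adjusted p = 0.164) and -0.63 without SCC replicate 2 (adjusted p = 0.00307).

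Of the regulators of oxidation, Ppara passed and Ppargc1a did not. PPARA, a nuclear receptor for fatty acids, drives the genes of oxidation. Ppara read 8.70, 8.80, 8.86, 8.62 and 8.78 in WT and 7.46, 8.61, 7.27, 7.05 and 5.93 in SCC. It fell by 1.49 ± 0.39 (2.81-fold, adjusted p = 0.0111), with SCC replicate 2 just under the WT range and SCC replicate 5 lowest. The Ppara difference was -0.95 after normexp (adjusted p = 0.00445) and -1 on slide 2 alone (adjusted p = 0.266). Ppargc1a, a coactivator of mitochondrial genes, read 8.23, 8.74, 8.61, 8.33 and 8.68 in WT and 9.31, 10.96, 8.98, 8.48 and 9.79 in SCC. SCC replicate 2 was the highest and SCC replicate 4 lay within the WT range, and the difference of 0.98 ± 0.40 did not pass (adjusted p = 0.064), while its other probe rose by 1.06 (adjusted p = 0.0233). Without SCC replicate 2 the Ppargc1a difference was 0.62 (adjusted p = 0.0566). On SCC replicate 2, 5 of the 6 oxidation genes exceeded the WT range and 1 was below it, against 1 or 2 above on each other tumour. Among 14 further oxidation genes, 2 were higher, none was lower and the median difference was 0.01. One of the 2, Ppard (named after its values were seen), was above background on 0 WT and 4 SCC arrays and entered the test only through the SCC group.

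The glycerolipid genes build triglyceride and phospholipid from fatty acyl-CoA. GPAM and AGPAT2 add the first and the second acyl chain to glycerol phosphate, and DGAT1 and DGAT2 the last one of triglyceride. Agpat2 read 9.42, 9.43, 9.28, 9.44 and 9.24 in WT and 9.93, 10.04, 10.02, 10.14 and 9.95 in SCC. The 5 tumours were close together and above all WT lungs, and the rise was 0.65 ± 0.08 (adjusted p = 0.000182). Dgat1 rose by 0.43 ± 0.08 (adjusted p = 0.00171), from 9.47 to 9.61 in WT to 9.87 to 10.09 in SCC, also without overlap. The second probes of Agpat2 and Dgat1 rose by 0.54 and 0.45.

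Dgat2 read 12.53, 12.66, 12.27, 12.08 and 12.65 in WT and 13.26, 12.32, 13.62, 13.96 and 13.60 in SCC. Its rise of 0.91 ± 0.28 (adjusted p = 0.0224) left SCC replicate 2 among the WT values and passed in 6 of the 10 fits without 1 array. The other Dgat2 probes rose by 2.17 (adjusted p = 0.00386) and 1.88 (adjusted p = 0.00465). Gpam read 7.03, 7.14, 7.03, 7.04 and 6.66 in WT and 6.71, 7.01, 6.94, 6.22 and 4.91 in SCC, where SCC replicate 5 was lowest, and its difference of -0.62 had an interval from -1.44 to 0.19 (adjusted p = 0.18). The Gpam value was -0.26 without SCC replicate 5, -0.23 after 75th percentile scaling, -0.20 after normexp and 0.22 on slide 2 alone, and passed in none of these. On slide 2 alone the median of the 4 genes was 0.37 in place of 0.54. There Agpat2 differed by 0.76 (adjusted p = 0.0235), while Dgat1 (0.31, adjusted p = 0.207) and Dgat2 (0.42, adjusted p = 0.593) did not pass.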

How the data were processed

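RNA of 5 WT lungs and 5 SCCs was measured on 1 array per sample, grouped and numbered by sample title. Per the labels, the authors extracted RNA with TRIzol and columns and read the scans with Feature Extraction 12 from Agilent. Scanner files as deposited give, per spot, a processed intensity after background subtraction, median raw intensities and flags. The authors also deposited log2 values (quantile-normalized, per their methods), which correlated with the log2 intensity computed here at 0.99995 or more on every array. They chose each gene's probe and served as an alternative.

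Control and outlier-flagged spots were removed, spots averaged per probe, and 41174 probes quantile-normalized and log2-transformed in R 4.3.3. Of these, 28223 (68.55%) had a symbol. The 30374 probes of which 0.5 or more of the spots were well above background on at least 4 of 5 arrays of a group were tested with limma 3.58.1 (two-sided, Benjamini-Hochberg), checked on simulated data, in place of the methods' one-way ANOVA. Single values were tested by exact two-sided permutation over 252 splits. The number of arrays limits the precision. Every member was named, and further pathway genes where passing and at least 4-fold different, unless said otherwise. Alternatives changed the scaling, background, source, filter, slide, replicate block, array weights, test, probe, threshold and arrays. The scanner files used here give median spot signals, on which normexp (offset 50) was run. The members, lists and tests were chosen with earlier results of these data known.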

Additional observations from a re-analysis of the deposited data

Results flagged for a closer look

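In 86 groups of 5 arrays (43 genes in 2 groups), 14 held 1 array whose gap to its nearest neighbour took up more than 0.71 of the group's range. Chance gives about 1 in 20 groups, and the genes share their arrays. SCC replicate 2 gave 8 of the 14. It was low for Lpl (gap 0.879 of the range), Abcg1 (0.812), Mvd (0.760), Dhcr7 (0.749), Fads2 (0.725) and Idi1 (0.722), and high for Cpt1a (0.860) and Acss2 (0.779). WT replicate 5 gave 4, being low for Scd1 (0.960), Gpam (0.771), Sqle (0.721) and Fads2 (0.716). SCC replicate 4 was high for Elovl6 (0.738) and WT replicate 2 was high for Lpl (0.719).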

How the results depend on the processing

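No gene that passed changed sign under any setting that kept its probe. The deposited values, the stricter filter on dim probes and slide as a random block (within-slide correlation -0.017) left all 43 genes on the same side of the threshold. The methods' t-test and testing all probes each lost 2, Hmgcs1 and Elovl1. Normexp added Fasn and gave a glycerolipid median of 0.444, and 75th percentile scaling added Fasn and lost Elovl1. Array weights added 9 genes, to 24 higher and 12 lower, with 20063 of 30374 probes passing against 14878. Slide as a fixed block gave 3814 passing probes, 5 genes higher and 0 lower, and medians of 0.366 for glycerolipid synthesis, 0.03 for fatty acid synthesis and 0.203 for oxidation; it leaves 1 WT array in the comparison. Asking for 2-fold gave 6954 probes, 7 genes higher and 3 lower.

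Leaving out 1 array at a time gave 12625 to 17865 passing probes, 15 to 23 genes higher and 6 to 11 lower, with medians of 0.878 to 1.089 for cholesterol synthesis, -0.331 to -0.087 for fatty acid synthesis, -0.114 to 0.036 for oxidation and 0.508 to 0.56 for glycerolipid synthesis. Hmgcs1, Elovl1, Fads1, Fdps, Scap and Dgat2 lost their call in 4 to 7 of these 10 fits, and the other passing genes kept it in all 10. Leaving out SCC replicate 2 added Idi1, Acly, Acss2, Lpl, Abca1, Abcg1 and Cpt1a, and leaving out SCC replicate 4 added Ppargc1a. Leaving out SCC replicates 2 and 5 together gave 19731 passing probes and a fatty acid synthesis median of -0.384.

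Replicate numbers did not pair the samples, since same-numbered WT and SCC arrays correlated at -0.103 to 0.009 in their deviations from the group means and none was best matched by its own number. With the replicate block 12374 probes, 14 genes higher and 6 lower passed, and Hmgcs1, Fdps, Scap, Elovl1, Fads1, Fads2 and Dgat2 did not.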
